A study of Homo sapiens with 3 samples.

Results

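The tripartite motif (TRIM) genes were taken as all rows of the deposited gene table whose symbol is TRIM followed by a number and at most 1 further letter. The rule found 74 of 60605 genes, of which 73 are protein-coding in GENCODE 29 and TRIM80P is a pseudogene. The cells were RCC4, an established human clear cell renal carcinoma line without functional VHL, which here also carried a lentiviral Cas9 vector. There was 1 group of 3 libraries, each a biological replicate grown in 3 flasks and exposed to IFN-gamma at 1000 U/mL with TNF at 25 ng/mL for 24 h. Untreated cells were not analysed here, so no value is a response to the cytokines, and 1 line limits how far the levels apply to other renal tumours. Gene-assigned reads numbered 29199806, 26264283 and 33458691. All 8 renal carcinoma epithelial markers were detected, whereas none of the 5 blood, 3 endothelial or 3 muscle markers was, and 1 of 3 neuronal markers, SYP, was at 0.904 ± 0.148 RPKM (SD, n = 3). Replicate 1 stood apart from the other libraries, with values given below.

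TRIM proteins share an amino-terminal RING finger, B-box and coiled coil, and most act as ubiquitin ligases that pass ubiquitin from an E2 enzyme to a target. The carboxy-terminal domain differs between members, binds the target and defines the structural classes. Many members with a SPRY domain act in innate immunity: TRIM5 recognises retroviral capsids, TRIM21 binds antibody on incoming virus, and TRIM25 acts on the RNA sensor RIG-I. Interferons raise several of them through the interferon-stimulated response element (ISRE), while TRIM28 and its relatives act on chromatin.

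The start regions of the interferon-regulated members are shown because most of those examined held the ISRE core. Promoter windows from RefSeq (GRCh38.p14), 250 bases before to 50 after an annotated start, were found for 56 of the 74 TRIM genes. The ISRE core, taken as GAAA, any 2 bases and GAAA, was searched on both strands. It occurred in a window of 10 of the 56 members and of 6 of 10 interferon-regulated members, against 4.38% of the 27305 genes with a window (3.57% of 35116 windows). The 6 were TRIM5, TRIM14, TRIM21, TRIM26, TRIM34 and TRIM69. TRIM25, TRIM38, TRIM56 and TRIM6 had no such letters in the window, and TRIM22 had no window. The other 4 members with a match were TRIM2, TRIM16, TRIM44 and TRIM64C. The matches are printed 5′ to 3′ on the gene's strand, with the ISRE core in capitals (as its reverse complement in all but TRIM21).
TRIM21: ctgagcgGAAACTGAAAGTGAAAtagggag
TRIM14: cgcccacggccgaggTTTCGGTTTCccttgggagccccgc
TRIM26: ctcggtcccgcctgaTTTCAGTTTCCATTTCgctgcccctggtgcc
TRIM5: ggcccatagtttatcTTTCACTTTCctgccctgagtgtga
TRIM34: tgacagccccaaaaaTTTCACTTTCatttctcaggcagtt
TRIM69: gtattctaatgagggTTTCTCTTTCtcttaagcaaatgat

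In TRIM21 (chr11:4393663-4393692, minus strand) a pair of overlapping cores lay at bases 18 to 33 after the RefSeq start. TRIM26 (chr6:30213570-30213615, minus strand) also had overlapping cores, at bases -194 to -179. A single core lay close before the start in TRIM14 (chr9:98119224-98119263, minus strand, bases -26 to -17) and TRIM5 (chr11:5685077-5685116, minus strand, bases -27 to -18). It lay farther upstream in TRIM69 (chr15:44736451-44736490, plus strand, bases -62 to -53) and TRIM34 (chr11:5624896-5624935, plus strand, bases -90 to -81). TRIM5 and TRIM34 shared the same 10 letters, TTTCACTTTC. The gamma-activated sequence TTCNNNGAA reads the same on both strands. It was in a window of 12 of 56 TRIM genes, of 0 of the 10 interferon-regulated members and of 9.38% of all genes. Among the 12, TRIM49 and TRIM49C had the same letters at the same positions, as did TRIM64 and TRIM64B. The 12 are therefore not independent members. An NF-kappa-B motif, GGGA, any 2 bases and TTCC, was in a window of 0 of 56 TRIM genes and of 1.97% of all genes. A match is a description of letters, not a site shown to be used.

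The family was partly expressed. Detection means at least 1 CPM, the read count scaled to library size after TMM normalisation, in every library. By this measure 35 TRIM genes were detected, all protein-coding (35 of 73, 47.9%), against 51.4% of 19861 protein-coding genes. A further 11 had reads in some library without reaching the threshold, and 28 were listed at 0 reads in all 3 libraries (38.4%, against 28.7% of protein-coding genes). Ranked by mean CPM, TRIM17, TRIM45 and TRIM16 were just above the threshold, at 1.55, 2.46 and 2.99 CPM. TRIM23 had a higher mean, 6.02 CPM, but passed narrowly in replicate 1, at 1.10 CPM. Just below the threshold by mean were TRIM31, TRIM39 and TRIM73, at 0.698, 0.654 and 0.335 CPM. TRIM genes together took 0.354% ± 0.0194 of the reads (SD, n = 3).

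By structural class, all 4 members with a PHD finger and bromodomain (TRIM24, TRIM28, TRIM33 and TRIM66) were detected, as were 4 of 5 members listed as lacking a RING finger (TRIM14, TRIM16, TRIM16L and TRIM44, but not TRIM29). Of the 39 SPRY members 17 were detected and 19 were listed at 0. Of 4 members with NHL repeats, which in some of them bind RNA, only TRIM3 was detected, at 3.31 ± 0.442 RPKM, and TRIM2, TRIM32 and TRIM71 were listed at 0. The single members with a MATH domain (TRIM37), an ARF domain (TRIM23) and a filamin domain without NHL repeats (TRIM45) were detected. Neither member with a transmembrane segment, TRIM13 or TRIM59, was.

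**Figure D1:**
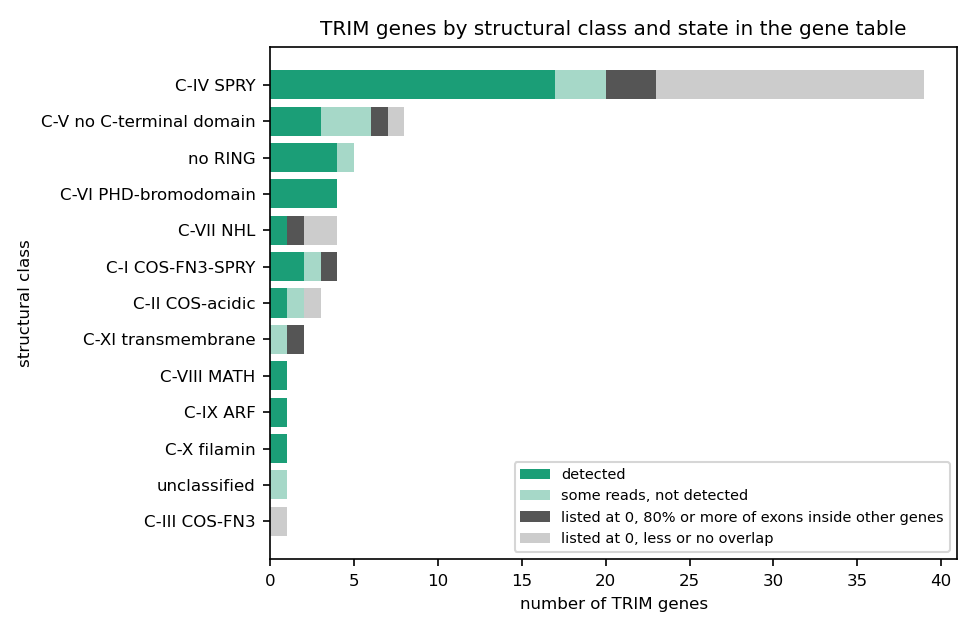
Number of TRIM genes (horizontal axis) in each structural class (vertical axis), with bar colours for 4 states in the gene table. All 4 PHD-bromodomain members were detected, and the SPRY class held 17 detected members and 19 listed at 0, 3 of the latter with 80% or more of their exons inside other genes.

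The zeros were read beside the overlap between genes, and 7 of the 28 were members with at least 80% overlap. For each member the share of its exon length lying within the span of any other gene, on either strand, was taken from GENCODE 29, and 7 TRIM genes had every exon base inside such spans. All 7 (TRIM6, TRIM13, TRIM22, TRIM32, TRIM34, TRIM46 and TRIM52) were listed at 0 in each library, as were 88.5% of 2096 protein-coding genes with this property. Both other members with 80% or more inside other spans, TRIM39 and TRIM59, stayed under the threshold with some reads. So 7 of 9 members at or above 80% were at 0 (77.8%, against 73.2%), and 0 of 9 were detected, against 8.18% of 3143 such protein-coding genes.

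Some of the overlap was on the opposite strand. TRIM32, mutated in a limb-girdle muscular dystrophy, lies within ASTN2 on the opposite strand, and TRIM46 and TRIM52 were also overlapped on the opposite strand alone. All 3 were at 0, as were 79.1% of 1282 protein-coding genes with 80% or more overlap of this kind (10.5% of these were detected). TRIM22 (ENSG00000132274.16, chromosome 11, 5689689 to 5737089, plus strand), an antiviral member, lies wholly within the annotated span of its paralogue TRIM5 on the minus strand. TRIM6 and TRIM34 overlap the readthrough gene TRIM6-TRIM34, itself at 0 reads, and lie within AC104389.4 on the opposite strand. The options of the authors' counting were not stated in the labels, and the part of the overlap in these zeros was not tested, so no statement on the RNA of these members is made.

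The other 21 members at 0 had less overlap, 19 of them none in GENCODE 29. The annotation used for counting is not known here and may place other genes over them, so their zeros carry the same limit. With each read independent, a count of 0 allows up to 3 reads. This is 0.110, 0.110 and 0.0862 CPM in replicates 1, 2 and 3, for counting error only. In each library far more genes had 2 reads (1621, 1748 and 1809) than 1 read (269, 271 and 265). Low counts thus mostly came in pairs, for which these limits are too low. TRIM2, TRIM40, TRIM50, TRIM58 and TRIM71 were among the 21, together with members of the muscle and testis lists below. With no exon inside other genes, 18 of 43 members were detected (41.9%), against 52.4% of 9532 such protein-coding genes, and 19 were at 0 (44.2%, against 27.2%). With overlap above 0 and under 50%, 11 of 14 were detected (78.6%, against 70.9% of 6174) and 2, TRIM54 and TRIM60, were at 0 (14.3%, against 10.4%). With 50% to under 80% inside, 6 of 7 were detected (85.7%, against 56.5% of 1012) and none was at 0, against 16.7%.

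**Figure D2:**
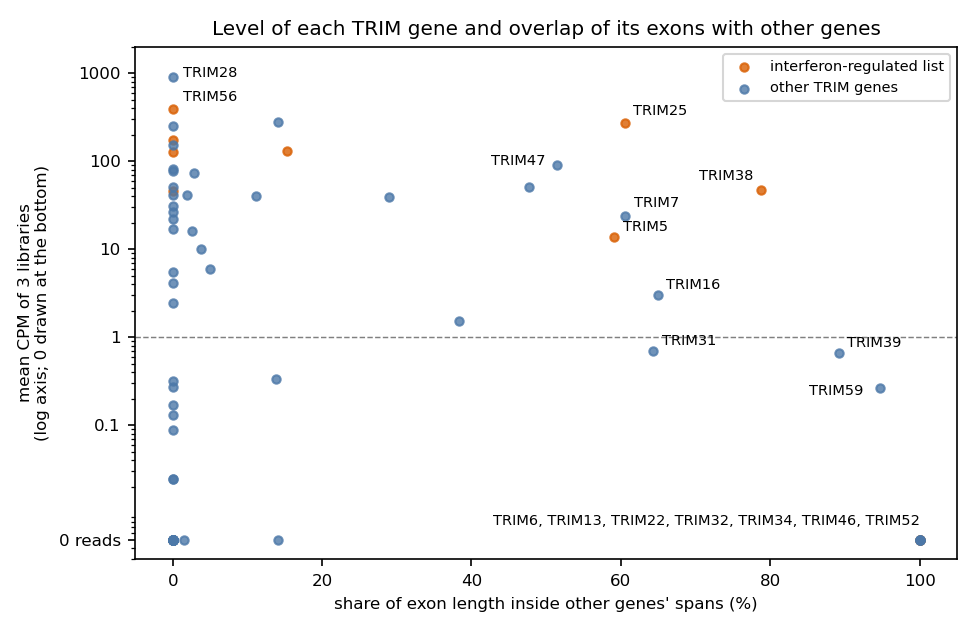
Mean CPM over 3 libraries (vertical log axis, zeros drawn at the bottom) against the share of a member's exon length inside other genes' spans (horizontal axis, percent) for all 74 TRIM genes, with the detection threshold dashed. The 7 members at 100% all sit at 0 reads, while TRIM38, at 78.8%, reached 47.0 CPM.

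Levels of different genes are compared as RPKM, in which CPM is divided by the gene's total exon length in kilobases. In bulk RNA, fewer expressing cells and less RNA per cell cannot be told apart. The median over the 35 detected members was 5.00 RPKM, beside 6.09 RPKM for 10201 detected protein-coding genes. The detected members ran from 0.435 ± 0.119 RPKM for TRIM17 to 224 ± 57.1 RPKM for TRIM28. The 15 highest were, in order, TRIM28, TRIM21, TRIM26, TRIM56, TRIM8, TRIM25, TRIM47, TRIM14, TRIM65, TRIM27, TRIM44, TRIM35, TRIM16L, TRIM55 and TRIM4. Of 34 neighbouring pairs in the order of all detected members, 5 differed beyond the replicate spread, defined as 1 sign in all libraries and a mean log2 difference above 2 SD. These were TRIM28 over TRIM21, TRIM21 over TRIM26, TRIM47 over TRIM14, TRIM14 over TRIM65, and TRIM55 over TRIM4. All other neighbours, such as TRIM56 and TRIM8, TRIM8 and TRIM25, or TRIM27 and TRIM44, did not differ beyond their spread. Where exons were partly inside other genes the order also depended on the length used. A second measure divided all reads of a gene by only its exon length outside other spans (the free exon length). By it TRIM25 stood at 72.8, TRIM47 at 59.0 and TRIM38 at 23.5 RPKM. Any reads counted in the overlapped exons make these values too high, and pair ratios formed from them too high or too low.

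**Figure D3:**
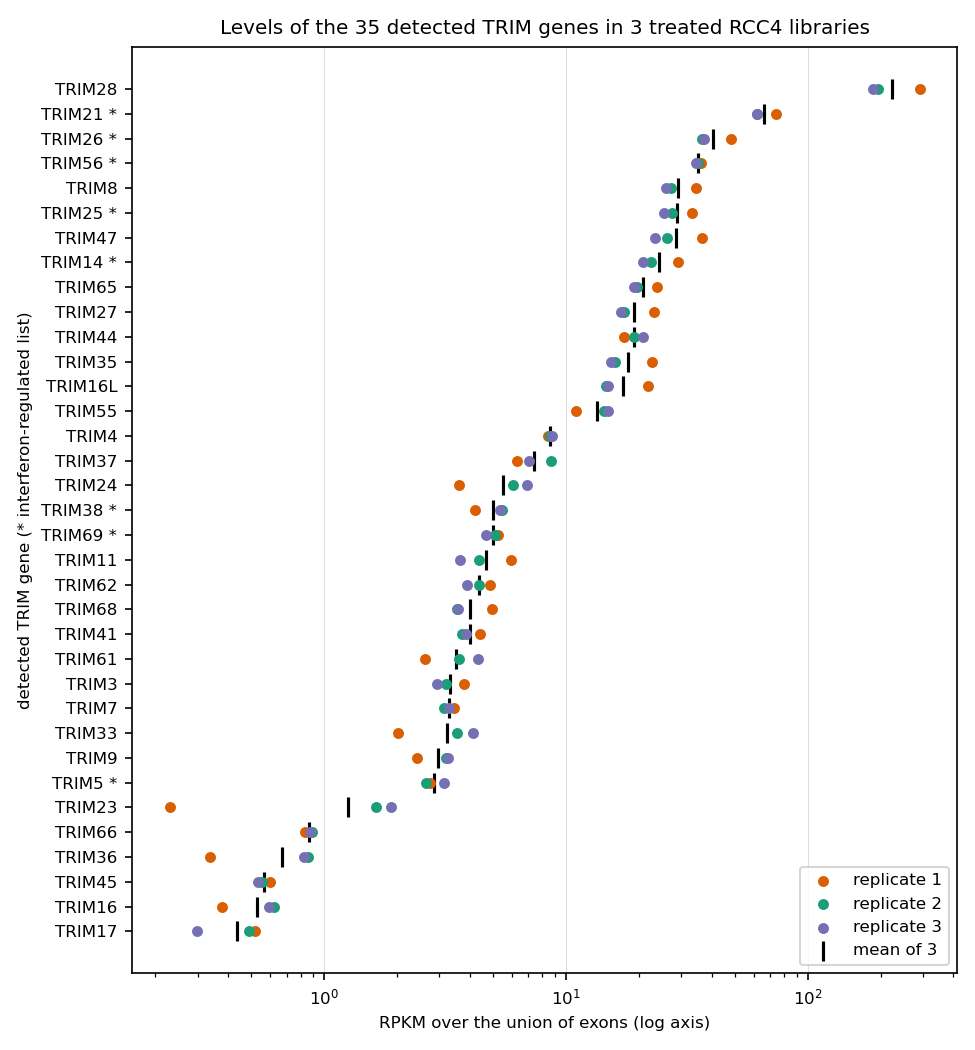
RPKM (horizontal log axis) of each of the 35 detected TRIM genes (vertical axis, ordered by mean) in replicates 1, 2 and 3, with the mean as a bar; stars mark the interferon-regulated list. TRIM28 lies above all others in each library, and TRIM23 and TRIM36 are far lower in replicate 1.

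TRIM28 (also KAP1; ENSG00000130726.12, chromosome 19, 58544091 to 58550722, plus strand) is the corepressor that KRAB zinc finger proteins recruit to silence repeats and genes. It stood at 289, 195 and 187 RPKM in replicates 1, 2 and 3, above 98.9% of detected protein-coding genes, and took 25.1% ± 3.23 of all TRIM reads. It was highest in replicate 1 and was the most abundant TRIM transcript in each library. The related TRIM24, a nuclear receptor coregulator, stood at 3.61, 6.02 and 6.90 RPKM. TRIM33, which acts in TGF-beta signalling, stood at 2.03, 3.54 and 4.15 RPKM. Both were lowest in replicate 1, opposite to TRIM28. TRIM66, the fourth member of this class, was at 0.867 ± 0.0274 RPKM.

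Within a library TRIM28 exceeded TRIM24 by 6.29, 4.99 and 4.74 on the log2 scale, a mean of 40.5-fold. It exceeded TRIM33 by 7.09, 5.74 and 5.46, a mean of 68.5-fold. Both differences passed the replicate spread in every alternative run. TRIM24 exceeded TRIM33 by 0.76 ± 0.04 on the log2 scale, which also passed. The partners through which TRIM28 silences chromatin were all present: the methyltransferase SETDB1 at 4.49 ± 0.437 RPKM, the HP1 proteins CBX1, CBX3 and CBX5 at 31.3 ± 3.67, 26.9 ± 14.5 and 9.79 ± 0.911 RPKM, and CHD3 and ATF7IP.

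The interferon-regulated list held 11 members, of which 8 were detected, beside 51.4% of all protein-coding genes. The median over those 8 was 26.5 RPKM, beside 6.09 RPKM for all detected protein-coding genes. The list was chosen with earlier results of these data known, so neither value sets it apart. The 3 members not detected, TRIM6, TRIM22 and TRIM34, are those with all exons inside other genes. TRIM21 (ENSG00000132109.10, chromosome 11, 4384897 to 4393696, minus strand) was the highest, at 74.0, 61.9 and 61.5 RPKM, with no exon inside another gene. TRIM26, encoded in the MHC region of chromosome 6, stood at 48.0, 36.4 and 37.0 RPKM. TRIM56, which acts with the DNA sensing pathway and restricts RNA viruses, stood at 36.1, 35.3 and 34.4 RPKM. The ranges of these 3 members did not overlap, but TRIM26 and TRIM56 did not differ beyond the replicate spread.

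TRIM25, the ligase of the RIG-I pathway, stood at 33.3, 27.4 and 25.5 RPKM, and 60.6% of its exon length lies inside other genes. TRIM14, an adaptor of the mitochondrial protein MAVS, stood at 29.2, 22.6 and 20.9 RPKM. The log2 TRIM25/TRIM21 ratio was -1.15, -1.17 and -1.27, with TRIM25 lower past the replicate spread. Over the exon length outside other spans that difference turned to 0.14 in favour of TRIM25. The TRIM25/TRIM56 difference was -0.30 ± 0.17 and did not pass, whereas without replicate 1 it was -0.40 and passed. It was 1.04 over the free exon length, so the order of these ligases rests on the length used.

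The rest of the list was lower. TRIM38, which restrains TNF and Toll-like receptor signalling, stood at 4.22, 5.42 and 5.35 RPKM with 78.8% of its exons inside an antisense gene. TRIM69, an antiviral member, stood at 5.25, 5.08 and 4.66 RPKM. TRIM5 (ENSG00000132256.20, chromosome 11, 5663557 to 5938619, minus strand) stood at 2.74, 2.65 and 3.14 RPKM, with 358, 346 and 525 reads and 59.1% of its exons inside other genes. The libraries lay close together for TRIM69 and TRIM5. The TRIM21/TRIM22 and TRIM5/TRIM22 ratios were not formed because TRIM22 was at 0 reads.

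Members outside the role lists had a median of 4.52 RPKM over the 24 detected of 41, beside 51.4% of all protein-coding genes detected. Those described here are mostly the highest of the 24. TRIM8, which promotes TNF-driven NF-kappa-B activation, stood at 34.4, 27.1 and 26.0 RPKM. TRIM65, the ligase of the RNA sensor MDA5, stood at 23.8, 19.7 and 19.2 RPKM. TRIM27, a nuclear ligase first found fused to RET, stood at 23.2, 17.4 and 16.9 RPKM. Each of these 3 genes was highest in replicate 1. TRIM44, which has a ubiquitin-specific protease type zinc finger in place of the RING, stood at 17.3, 19.1 and 20.8 RPKM and was lowest there. TRIM35, a ligase linked to glycolysis through pyruvate kinase, stood at 22.8, 15.9 and 15.4 RPKM. TRIM4, another ligase of the RIG-I pathway, was at 8.59 ± 0.15 RPKM, and TRIM37, whose loss causes mulibrey nanism, at 7.35 ± 1.24 RPKM. TRIM62 and TRIM68 were near the family median, at 4.38 ± 0.474 and 4.03 ± 0.781 RPKM. The log2 TRIM38/TRIM27 ratio was -2.43, -1.66 and -1.64, past the replicate spread, although over the free exon length it was 0.30 and did not pass.

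Several members sit side by side in the genome. Chromosome 11 held 19 of the 74, of which 6 were detected and 12 were listed at 0. The latter were TRIM6, TRIM22 and TRIM34, which lie inside other genes, and members of the testis or embryo list. On chromosome 17, 6 of 7 were detected and none was at 0. The shares of all genes on these chromosomes were not computed, so the counts describe these members only. TRIM47 and TRIM65 are neighbours on chromosome 17 (75874161 to 75878575 and 75880335 to 75897003, both on the minus strand). TRIM47 stood at 36.4, 26.1 and 23.4 RPKM and exceeded TRIM65 by 0.61, 0.41 and 0.28 on the log2 scale. That difference passed the replicate spread, but not without replicate 2 (0.45). Over the free exon length it was 1.48 and passed. TRIM11 and TRIM17, adjacent on chromosome 1, were at 4.66 ± 1.17 and 0.435 ± 0.119 RPKM, a log2 ratio of 3.15 ± 0.19 that passed. TRIM41 and TRIM7 on chromosome 5 were nearly level, TRIM41 at 4.42, 3.71 and 3.87 RPKM and TRIM7 at 3.43, 3.14 and 3.28 RPKM (log2 ratio 0.27 ± 0.07, past the spread). Over the free exon length this ratio was -0.13 and did not pass.

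On chromosome 6, 6 members lie close together in the MHC region, and of these only TRIM26 was detected. TRIM10, TRIM15 and TRIM31 had 6 to 22 reads per library and TRIM40 none. TRIM39 had 6, 20 and 35 reads with 89.2% of its exons inside other genes, mostly the readthrough gene TRIM39-RPP21. TRIM26 exceeded it by 7.38 ± 0.81 on the log2 scale, and by 4.93 over the free exon length. TRIM16L on chromosome 17 stood at 21.82, 14.63 and 14.96 RPKM and TRIM16, of which it is a near copy, at 0.379, 0.620 and 0.591 RPKM (log2 ratio -4.77 ± 0.65, and -3.46 over the free exon length). The order was the same in each library, but reads shared by such copies cannot be assigned with certainty, and 65.0% of TRIM16 exons lie inside other genes. The pairs TRIM32/TRIM3, TRIM2/TRIM3 and TRIM13/TRIM59 were not formed, since 1 gene of each was at 0 reads. In all, 10 of the 11 pairs that could be measured passed the replicate spread. The share of other gene pairs that pass this rule was not computed, so the count does not set these pairs apart.

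**Figure D4:**
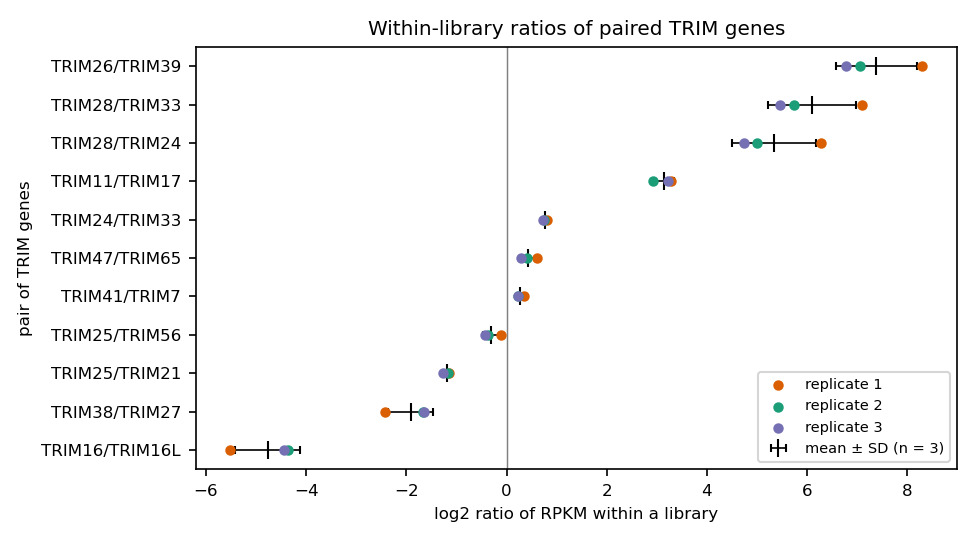
Log2 ratio of RPKM within a library (horizontal axis) for the 11 measurable pairs (vertical axis), with points for replicates 1, 2 and 3 and bars for the mean ± SD. Only TRIM25/TRIM56 did not pass the replicate spread.

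Members on the fixed muscle, brain and testis or embryo lists were mostly at 0 or a few reads, with 1 exception in each list. The lists need not hold every member known from these tissues. In the muscle list, TRIM54 and TRIM72 were at 0 reads and TRIM63, the atrophy ligase MuRF1, had 2, 0 and 0 reads. TRIM55 (MuRF2; chromosome 8, 66126896 to 66175487, plus strand) stood at 10.96, 14.4 and 14.98 RPKM, from 917, 1205 and 1606 reads, with no exon inside another gene. The muscle markers MYH7, ACTA1 and CKM had 0 to 6 reads per library, and their summed level was 0.0464, 0.148 and 0.0864 RPKM. In the brain list, TRIM9 stood at 2.43, 3.20 and 3.25 RPKM, TRIM46 was at 0 and TRIM67 had 4, 0 and 4 reads. The summed level of the neuronal markers was 1.01, 0.798 and 1.04 RPKM, nearly all of it SYP, and its part in the TRIM9 level was not tested. Both TRIM55 and TRIM9 were lowest in replicate 1. Of 15 members in the testis or embryo list 14 were at 0, none of them with 80% or more of its exons inside other genes. TRIM61 was the exception, at 2.61, 3.61 and 4.32 RPKM from 112, 155 and 238 reads. Some of the 14 at 0 are close paralogues, such as TRIM49, TRIM49B and TRIM49C. Reads shared by such copies cannot be assigned with certainty, so these zeros carry that limit too.

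The replicates did not agree equally for all members. Of the 35 detected TRIM genes, 21 were highest in replicate 1 (60.0%, against 48.5% of 11266 detected genes), 13 were lowest there (37.1% against 43.0%) and TRIM5 lay between. The direction went with the GC content of the transcripts, whose part in the difference was not tested. Of 14 members under 50% GC, 10 were lowest in replicate 1, against 71.1% of such detected genes. Of 21 members at 50% or more, 18 were highest in replicate 1, against 77.6%. Across the 35 genes, which share these libraries and are not replicates, Spearman's rho between GC content and the log2 ratio of replicate 1 to the other libraries' mean was 0.729. Over 11212 detected genes it was 0.710.

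The ends of this range were wide apart. TRIM23, a ligase with an ARF GTPase domain, had 30, 214 and 316 reads, a log2 ratio of -2.83 at 42.2% GC. TRIM36, which binds microtubules, had 56, 142 and 175 reads, a ratio of -1.27 at 46.9% GC. These were the only 2 members under 50% of the other libraries' mean (5.71%, against 13.3% of detected genes). They remained so after subtracting the median of genes of like GC content, at -2.26 and -1.19. TRIM33, TRIM24 and TRIM16 followed at -0.92, -0.84 and -0.65. At the other end were TRIM28 at 0.60, TRIM11 at 0.56, TRIM16L at 0.56, TRIM47 at 0.56 and TRIM35 at 0.54, and no member was more than 2-fold above (0.186% of detected genes were). Against the trend, 3 members under 50% GC were highest in replicate 1 (TRIM21, TRIM27 and TRIM69), with TRIM27 at 0.44 and 47.1% GC. At 50% GC or more 3 were lowest there (TRIM9, TRIM16 and TRIM66), with TRIM9 at -0.40 and 51.6% GC. The biological coefficient of variation from edgeR had a median of 0.231 over the detected TRIM genes and 0.251 over all detected genes. Without replicate 1 the medians were 0.0641 and 0.0733.

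**Figure D5:**
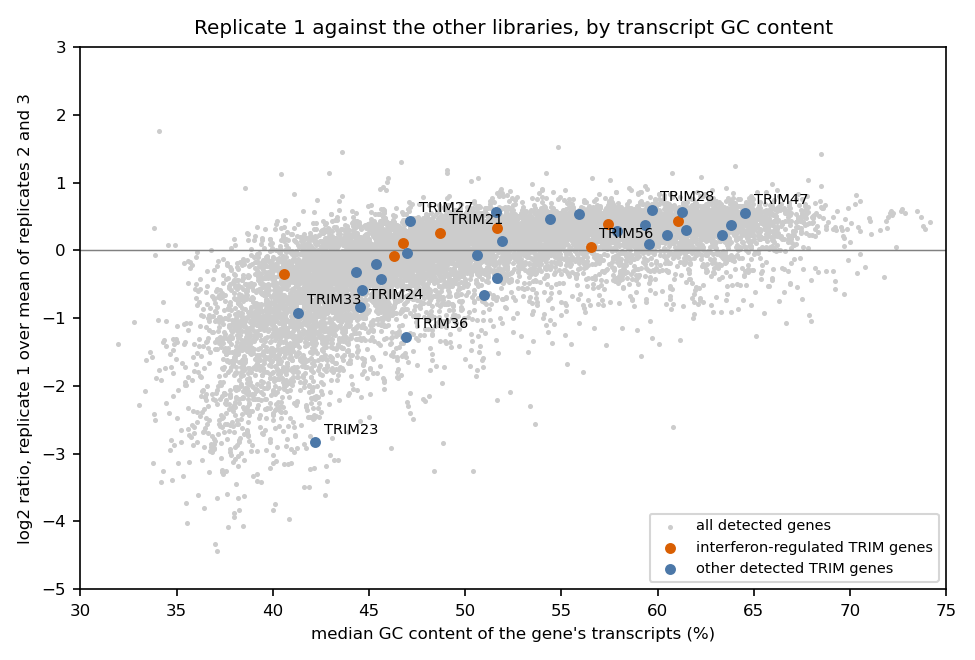
Replicate 1 relative to the other libraries' mean on the log2 scale (vertical axis) against the median GC content of a gene's transcripts (horizontal axis, percent), with all 11212 detected genes in grey and detected TRIM genes in colour. TRIM23 and TRIM36 lie lowest among the TRIM genes, and those at 50% GC or more lie mostly above 0.

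Genes related to the TRIM members or known to work with them were read beside the 51.4% of all protein-coding genes that were detected. Of 7 family genes under other symbols 5 were detected, led by PML (TRIM19), the organiser of nuclear bodies, at 62.9 ± 12.9 RPKM. MID1 and MID2, microtubule-bound ligases, stood at 4.60 ± 0.678 and 2.54 ± 0.366 RPKM, and RNF135, a RING ligase of the RIG-I pathway, at 9.30 ± 1.25 RPKM. MEFV (TRIM20), known from leukocytes, was at 0.676 ± 0.121 RPKM, and TRIML1 and TRIML2 were not detected. Of 12 E2 enzymes 9 were detected, with UBE2D2 at 44.7 ± 4.13 and UBE2N, which builds lysine-63 chains, at 14.2 ± 0.924 RPKM. UBE2V1, UBE2W and UBE2D4, the 3 that were not, have 80% or more of their exons inside other genes.

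Of 11 signalling partners 10 were detected. TMEM173 (STING) stood at 42.3 ± 5.06, TAB2 at 24.7 ± 3.96, MAVS at 23.4 ± 6.37 and IFIH1 (MDA5) at 20.3 ± 6.80 RPKM. DDX58, which encodes RIG-I, had no read in any library, and none of its exons lies inside another gene in GENCODE 29. The annotation used for counting is not known here and may place another gene over it. No statement on RIG-I RNA is therefore made, and no ratio of TRIM25 to its target was formed. Among other partners, PPIA (cyclophilin A, which binds the retroviral capsid that TRIM5 recognises) stood at 272 ± 37.3 RPKM and VCP, which acts after TRIM21, at 87.4 ± 14.8 RPKM. DAXX and SP100, which share nuclear bodies with PML, stood at 50.8 ± 8.08 and 12.3 ± 3.41 RPKM, and MAGEC2, a testis antigen that binds TRIM28, was at 0 reads.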

How the data were processed

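Poly(A) RNA of 3 cultures of cytokine-treated RCC4 cells was sequenced after a directional library preparation, per the labels' protocols. FastQC, cutadapt 1.18, HISAT2 2.1.0, featureCounts 2.0.0 and hg38 are named in the submitters' processing notes, which give neither the counting options nor the annotation release. The deposited signal values are read counts that the authors divided by 1 size factor per library. Multiplying by the factors recovered from the steps between low values (0.946, 0.971 and 1.24) gave whole reads for 100% of values within 0.01 read, and these were used. Libraries were scaled by TMM in edgeR 4.0.16 (R 4.3.3). RPKM used the union of exons in GENCODE 29, which matched 58337 of 60605 genes and 99.9% of reads, and log2 values used a pseudocount of 0.1. Gene overlap and GC content came from the same annotation and its transcripts. GC correction subtracted the median of 20 GC bins. DESeq2 1.42.0 size factors were an alternative. The estimate of 1 common dispersion was tested on simulated data for 3 libraries. The gene-by-gene values, and those without replicate 1, were not tested in this way.

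With 1 group no test between groups exists. The spread is the SD over 3 libraries, and limits for 0 reads cover counting error only. Named with values were the 15 highest detected members, the interferon-regulated list, both genes of 16 pairs, the 5 lowest and 5 highest ratios of replicate 1 to the others, and the 3 members on each side of the detection threshold; other members and partners came from role and pathway lists. The members, lists and pairs were chosen with earlier results of these data known.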

Additional observations from a re-analysis of the deposited data

How the results depend on the processing

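The number of detected TRIM genes was 35 with TMM, with DESeq2 size factors, with the authors' scaling and without any 1 replicate; it was 41 at 0.1 CPM, 28 at 10 CPM and 36 at 10 reads. Leaving out members with 80% or more of their exons inside other genes kept 35 of 65; at 50% or more, chosen after seeing the data, it was 29 of 58. The median level was 2.35 as log2 RPKM. It was 3.05 over free exon length, 5.40 as CPM without length scaling, 2.58 with a pseudocount of 1, 2.095 over the 42 members with a read in every library, and 2.31 to 2.51 without 1 replicate. Replicate 1 relative to the others had a median log2 ratio of 0.13 over detected TRIM genes, beside 0.043 over all detected genes. GC correction, which subtracts the median of detected genes of like GC content, brought the TRIM median to -0.0056. The median member thus lay close to genes of like GC content. The median coefficient of variation ranged from 0.0641, without replicate 1, to 0.355 when 1 replicate was left out. Over free exon length TRIM25/TRIM56 reversed to 1.04, TRIM25/TRIM21 to 0.14, TRIM41/TRIM7 to -0.13 and TRIM38/TRIM27 to 0.30; without length scaling TRIM25/TRIM21 reversed to 1.10. Each follows from the length used. With a pseudocount of 1 TRIM16/TRIM16L was -3.55 and TRIM26/TRIM39 was 5.16. Without length scaling TRIM47/TRIM65 was 0.10 and TRIM25/TRIM56 was -0.54. No paired analysis was possible because there is 1 group. Depth limits members under 1 CPM, whose libraries held 35 reads or fewer.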

Other observations

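Some rows that overlap TRIM genes held reads of their own. AC104389.4, which spans TRIM6 and TRIM34 on the opposite strand, had 12 reads in each library. DLEU2, which spans TRIM13, had 85, 318 and 433 reads, lowest in replicate 1. ASTN2, around TRIM32, had 444, 445 and 767 reads, and C17orf67, over part of TRIM25, had 549, 535 and 714. Among near-identical copies, whose reads cannot be assigned with certainty, TRIM73 had 10, 4 and 17 reads, TRIM74 had 2, 4 and 10, and TRIM50 had none. The pseudogene TRIM80P had 6, 0 and 6 reads.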
